A study of Mus musculus with 6 samples.

Results

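The 35 genes described here encode the steps that carry glucose into the cell, through glycolysis to pyruvate and lactate, and through the pentose phosphate pathway. They were chosen by gene symbol, and all 35 of 35 were found among the 49585 genes of the deposited count table. The cells were mouse bone marrow leukaemias called MA9, which commonly stands for the MLL-AF9 fusion oncogene. The Gata2 KO group (3 libraries) is labelled as lacking Gata2, which encodes a transcription factor needed by blood stem cells, and carries the name Cre in its sample descriptions. The Gata2 f/f group (3 libraries) kept loxP-flanked Gata2 alleles. All 6 cultures were grown with IL-3, IL-6 and stem cell factor and had been in 5 uM Nutlin, which frees p53 from MDM2, for 18 h. The labels do not say how Cre was delivered, which mice the leukaemias came from or what the library numbers 1 to 3 stand for. Cultures without Nutlin were not analysed here.

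Glycolysis splits glucose into pyruvate and yields ATP, and cells that ferment turn the pyruvate into lactate and export it. The step of phosphofructokinase is a control point: the PFKFB enzymes make and break fructose-2,6-bisphosphate, the small molecule that activates it. The pentose phosphate pathway branches off after hexokinase and supplies NADPH and ribose. Many glycolytic genes are known targets of the hypoxia-inducible factors (HIF), and p53 is known to restrain glycolysis in several cell types.

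At Gata2 itself, the library labelled Gata2 KO 2 goes against its label. Levels are given as scaled CPM, CPM on the TMM-normalised library size. Gata2 stood at 5.44 scaled CPM in KO 1, 43.3 in the library labelled KO 2 and 4.33 in KO 3, against 33.6, 22.3 and 18.4 in f/f 1, 2 and 3. Every statement on the KO group includes that library unless it says otherwise. The libraries numbered 3 also stood apart from the other 4 in both genotypes. All 11 genes of a macrophage marker list were called higher in number 3 (edgeR, 12.0% of all genes), in a comparison chosen with earlier results of these data known. Their summed levels were 1186 to 1497 scaled CPM in number 3 and 107 to 375 in numbers 1 and 2. Total counts were 17138687 to 26440960 per library, and values for each gene below are in the order of library numbers 1, 2 and 3.

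Promoters are shown first for 4 genes to which the results return: Pfkfb4 and the glucose transporter Slc2a6 for their differences between genotypes, and Slc16a1 and Slc16a3 as the pair of lactate carriers. Each is the stretch of 250 bases before the annotated start, 5′ to 3′ on the gene's own strand, from RefSeq (GRCm38.p6). The gene coordinates of GENCODE M21 match these starts only for Slc2a6. Slc16a1 starts there at 104638668, a few bases beyond the end of its stretch. There Pfkfb4 starts at 108991778, so that its stretch runs into the gene. Slc16a3 starts there at 120948480, so that its stretch lies inside the gene. Capitals mark letters found on either strand. The HIF core is ACGTG or else GCGTG, and the E-box is CACGTG. The GATA motif is AGATAA in its first form, AGATAG in its second, TGATAA in another and TGATAG in the last. An E-box holds an ACGTG on each strand, so the motifs overlap there.
Pfkfb4 (chr9:108991652-108991901, plus strand): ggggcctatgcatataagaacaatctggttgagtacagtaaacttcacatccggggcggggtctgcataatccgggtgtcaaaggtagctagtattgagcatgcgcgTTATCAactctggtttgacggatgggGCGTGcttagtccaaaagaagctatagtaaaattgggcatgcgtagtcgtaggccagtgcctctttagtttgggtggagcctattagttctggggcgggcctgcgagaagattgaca
Slc2a6 (chr2:27027999-27028248, minus strand): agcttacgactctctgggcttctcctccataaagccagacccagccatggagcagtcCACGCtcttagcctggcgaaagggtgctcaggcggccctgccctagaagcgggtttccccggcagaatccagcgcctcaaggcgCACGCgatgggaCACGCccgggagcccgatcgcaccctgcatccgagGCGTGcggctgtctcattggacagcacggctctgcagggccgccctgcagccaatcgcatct
Slc16a1 (chr3:104638414-104638663, plus strand): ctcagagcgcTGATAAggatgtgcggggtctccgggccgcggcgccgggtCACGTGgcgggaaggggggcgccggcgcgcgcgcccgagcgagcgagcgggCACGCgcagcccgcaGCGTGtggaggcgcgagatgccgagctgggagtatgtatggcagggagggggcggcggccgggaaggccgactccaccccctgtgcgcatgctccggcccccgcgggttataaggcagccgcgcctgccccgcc
Slc16a3 (chr11:120948817-120949066, plus strand): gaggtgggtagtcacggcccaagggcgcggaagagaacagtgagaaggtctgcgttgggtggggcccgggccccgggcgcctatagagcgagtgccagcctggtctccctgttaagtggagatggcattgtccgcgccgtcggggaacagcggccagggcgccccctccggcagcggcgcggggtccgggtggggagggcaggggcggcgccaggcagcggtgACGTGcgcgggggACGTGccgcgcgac
The Pfkfb4 stretch held 1 HIF core and 1 GATA match, that of Slc2a6 held 4 HIF cores and that of Slc16a3 held 2. The Slc16a1 stretch held 4 HIF core matches, of which those at its 1 E-box are counted on each strand, and 1 GATA match. Over windows of 300 bases, 250 before to 50 after the start, 34 of the 35 genes had an entry. A HIF core lay in at least 1 window of 31 of these 34 genes (91.2%) and of 66.8% of the genes tested that had an entry. By window the shares were 77.4% of the 53 windows of these genes, 60.7% of those of tested genes and 43.8% of all. GATA letters lay in 9 of the 34 genes (26.5%), against 22.7% of tested genes. E-boxes lay in 5 of the 34 (14.7%), against 11.8%, but by window in 9.43% of windows of these genes, against 9.87% of those of tested genes. By window GATA letters lay in 24.5% against 19.5%. These are counts of letters, not of bound sites.

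No glycolysis or pentose phosphate gene passed the test between the genotypes. All 35 were among the 13744 genes tested, and edgeR's quasi-likelihood test called 0 of them and 0 genes in all (background 0%) at an adjusted p of 0.05. At an unadjusted p of 0.05 it marked 171 genes (1.24%), among them Pfkfb4 and Slc2a3. The log2 fold change of Gata2 KO over Gata2 f/f was positive in 24 of the 35 (68.6%), against 52.5% of all genes tested, with a median of 0.29 against 0.02. Without KO 3 it was positive in 19 of 35 (54.3%; 46.5% of all genes), and with the library number as a block in 22 (62.9%; 50.2%). Without both libraries numbered 3 it was positive in 25 of 35, a setting for which the share of all genes was not counted. Fits without KO 3 alone, here and below, kept f/f 3, and those without f/f 3 alone kept KO 3. Higher values within every number were seen in 16 of 35 (45.7%; 20.7% of all genes), and lower ones in 2 (17.7% of all genes). Within numbers 1 and 3 alone, which leaves out the library labelled KO 2, 20 of 35 were higher in KO (27.9% of all genes). The median difference was 0.25 in number 1, 0.06 in number 2 and 0.27 in number 3, smallest in number 2.

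With the library number as a block, edgeR called 0 genes and 0 of the 35, with 1473 genes (10.7%) and 12 of the 35 at an unadjusted p of 0.05. Their adjusted p ran from 0.287 to 0.460. Of these, 10 were higher in KO (7.41% of all genes) and 2 lower (3.30%). DESeq2 with the same block called 222 genes (1.62%), of which 3 belong here: Pfkfb4, Slc2a6 and Aldoc, all higher in KO (1.31% of all genes on that side). Without the block DESeq2 called 7 genes (0.0509%) and 0 of the 35. Without the library labelled KO 2, a setting chosen after the data were seen, DESeq2 with the block called 67 genes (0.469%) and 0 of the 35. Without both libraries numbered 3, also chosen after the data were seen, it called 382 genes (2.78%) and 5 of the 35. These 5 were Pfkfb4, Slc2a6, Slc2a1, Hk1 and Slc2a3. Blocked fits on fewer libraries had fewer residual degrees of freedom, so a call lost or gained there cannot be tied to the library left out. Without the library labelled KO 2, every KO library lay above every f/f library for 6 of the 35 (9.12% of all genes) and below for 2 (9.26%).

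**Figure D1:**
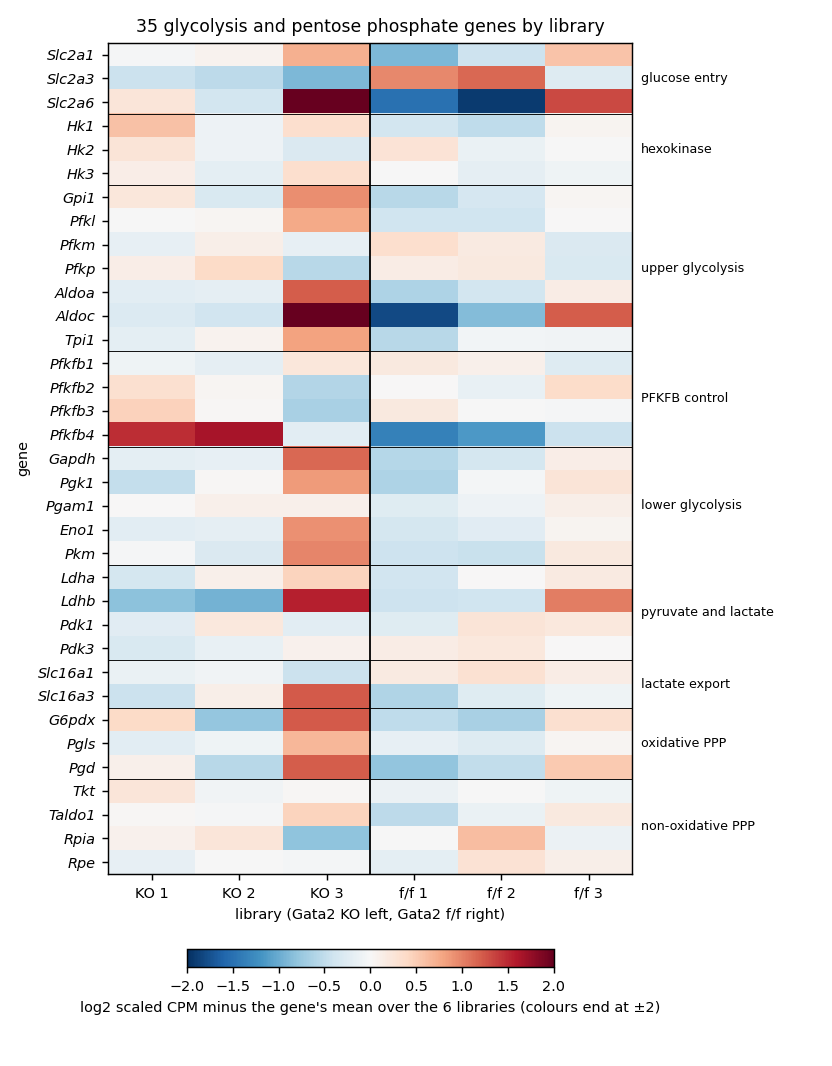
Levels of the 35 genes in each library, as log2 scaled CPM minus the mean of the gene over 6 libraries, with Gata2 KO on the left and Gata2 f/f on the right and genes grouped by role. Library KO 3 is the darkest red column, and Pfkfb4 is red in KO 1 and 2 and blue in f/f 1 and 2.

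Glucose enters through the SLC2A carriers. Slc2a1 encodes GLUT1, the carrier of most cells. It had 147, 159 and 246 scaled CPM in Gata2 KO and 80.6, 113 and 223 in Gata2 f/f. Each KO library lay above the f/f library of its number, and the groups overlapped. Its log2 fold change was 0.41 ± 0.41 (SE, unadjusted p = 0.352, edgeR), 0.10 without f/f 1 and 0.89 without f/f 3. With the block it was 0.50 ± 0.19 (unadjusted p = 0.0335, adjusted p = 0.443, edgeR). Slc2a3 encodes GLUT3, a carrier of high affinity, and was scarce, at 3.15, 2.93 and 2.27 scaled CPM in KO and 8.33, 9.50 and 3.54 in f/f. Every KO library lay below every f/f library, a layout shared by 2.78% of all genes on that side. It had a log2 fold change of -1.35 ± 0.44, with an unadjusted p of 0.0163 and an adjusted p of 1.00 (edgeR). With the block it was -1.25 ± 0.31 (unadjusted p = 0.00593, adjusted p = 0.403, edgeR).

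Slc2a6 encodes GLUT6, found on lysosomes in mouse macrophages, and was the most variable carrier. It reached 109, 71.2 and 427 scaled CPM in KO, against 32.7, 24.4 and 231 in f/f. Both number 3 libraries were high and KO exceeded f/f within each number. Without a block the log2 fold change was 1.08 ± 1.01 (unadjusted p = 0.322, adjusted p = 1.00, edgeR), and it turned to -0.11 without KO 3 and was 2.80 without f/f 3. With the block it was 1.38 ± 0.21 (unadjusted p = 0.000397, adjusted p = 0.287, edgeR), and DESeq2's blocked fit passed it (adjusted p = 7.51e-06). Without the library labelled KO 2 that DESeq2 fit gave 1.29 (adjusted p = 0.0742). Per kilobase of exon, Slc2a6 made up 44.3%, 32.7% and 65.4% of the 3 carriers in KO, against 29.7%, 18.5% and 52.9% in f/f.

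Hexokinases trap glucose as its 6-phosphate. Hk1, the form bound to mitochondria in most tissues, had 398, 246 and 333 scaled CPM in KO and 204, 185 and 275 in f/f. KO was higher within each number, and without the library labelled KO 2 the groups did not overlap. Its log2 fold change was 0.56 ± 0.27 (unadjusted p = 0.0803, adjusted p = 1.00, edgeR) and 0.37 without KO 1. The block gave 0.55 ± 0.18 (unadjusted p = 0.0228, adjusted p = 0.426, edgeR). Hk2, an inducible form, had 136, 107 and 93.4 in KO and 138, 105 and 114 in f/f. Hk3, known from myeloid cells, had 742, 590 and 851 in KO and 672, 594 and 639 in f/f. Per kilobase Hk3 was the main form, with 74.4% to 80.9% of the family in KO and 77.2% to 80.4% in f/f.

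In upper glycolysis 6 of 7 genes had positive fold changes, and 5 of 7 without KO 3. Gpi1, the isomerase after hexokinase, had 1596, 1112 and 2611 scaled CPM in KO and 936, 1087 and 1410 in f/f. Its log2 fold change was 0.63 ± 0.36 (unadjusted p = 0.121, edgeR), and 0.22 without KO 3. The block gave 0.57 ± 0.21 (unadjusted p = 0.0363, adjusted p = 0.444, edgeR). Pfkl, the liver-type phosphofructokinase, had 314, 323 and 534 in KO and 240, 239 and 317 in f/f, with a log2 fold change of 0.56 ± 0.29 (unadjusted p = 0.0933, edgeR) that was 0.24 without KO 3. Adding the block gave 0.53 ± 0.16 (unadjusted p = 0.0135, adjusted p = 0.403, edgeR). KO 1 lay just under f/f 3 in Pfkl, and KO was higher within every number in both Gpi1 and Pfkl. The other phosphofructokinases differed from Pfkl. Pfkm, the muscle type, had 36.6, 44.9 and 36.7 in KO and 52.0, 46.5 and 33.5 in f/f. Pfkp, the platelet type, had 233, 275 and 144 in KO and 234, 243 and 170 in f/f, with lower values in both number 3 libraries. It shares 748 exon bases with Pitrm1 on the other strand, and whether counting used strand is not given in the sources used here. Pfkl took 62.5%, 58.8% and 78.6% of the family per kilobase in KO, against 52.1%, 52.8% and 67.6% in f/f.

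Aldolase splits the phosphorylated sugar. Aldoa had 1922, 1954 and 5108 scaled CPM in KO and 1452, 1727 and 2462 in f/f, with a log2 fold change of 0.67 ± 0.45 (unadjusted p = 0.175, edgeR) that was 0.02 without KO 3. Adding the block gave 0.54 ± 0.22 (unadjusted p = 0.0423, adjusted p = 0.453, edgeR). Aldoc, the form known from brain, had 24.6, 23.0 and 130 in KO and 8.50, 16.4 and 68.9 in f/f. KO 3 held by far the most of both genes. For Aldoc the log2 fold change was 0.92 ± 0.95 without a block (unadjusted p = 0.362, edgeR), turned to -0.41 without KO 3 and was 2.22 without f/f 3. With the block it was 0.97 ± 0.24 (unadjusted p = 0.00519, adjusted p = 0.397, edgeR). DESeq2's blocked fit passed it (0.96, adjusted p = 0.0246), but not without the library labelled KO 2 (adjusted p = 0.156) or without both number 3 libraries (adjusted p = 0.105). Tpi1, which interconverts the triose phosphates, had 853, 1025 and 1718 in KO and 664, 942 and 938 in f/f.

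Pfkfb4 had the largest fold change of the 35. It is a member of the family that sets fructose-2,6-bisphosphate, and lies at chr9:108991778-109032228 on the plus strand (ENSMUSG00000025648.17, GENCODE M21). It had 43.0, 48.1 and 13.3 scaled CPM in KO and 5.99, 6.91 and 11.4 in f/f, from 900, 887 and 317 counts in KO and 105, 155 and 287 in f/f. All KO libraries lay above all f/f libraries, alone among the 35 (2.64% of all genes on that side). The gap was wide in numbers 1 and 2, with log2 differences of 2.83 and 2.79, and narrow in number 3, with 0.22. The means were 34.8 ± 18.8 in KO and 8.11 ± 2.91 in f/f (SD, n = 3 each).

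The log2 fold change of Pfkfb4 was 2.10 ± 0.52 (unadjusted p = 0.00423, adjusted p = 1.00, edgeR). With the block it was 1.99 ± 0.56 (unadjusted p = 0.0106, adjusted p = 0.403, edgeR), and DESeq2's blocked fit passed it (adjusted p = 0.000854). It was 1.79 without the library labelled KO 2 and 2.47 without KO 3, and DESeq2 with the block but without the library labelled KO 2 gave an adjusted p of 0.421. The library labelled KO 2 held the highest Pfkfb4 level of all 6, although its Gata2 level was also the highest. Per kilobase, Pfkfb4 made up 34.1%, 43.8% and 24.6% of the family in KO, against 7.87%, 10.2% and 15.9% in f/f. Pfkfb3, which strongly favours making the activator, was the main form, with 121, 88.9 and 55.6 scaled CPM in KO and 100, 86.9 and 86.4 in f/f. Pfkfb1 and Pfkfb2 stayed at 1.64 to 3.11 scaled CPM in KO and 2.19 to 3.23 in f/f.

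**Figure D2:**
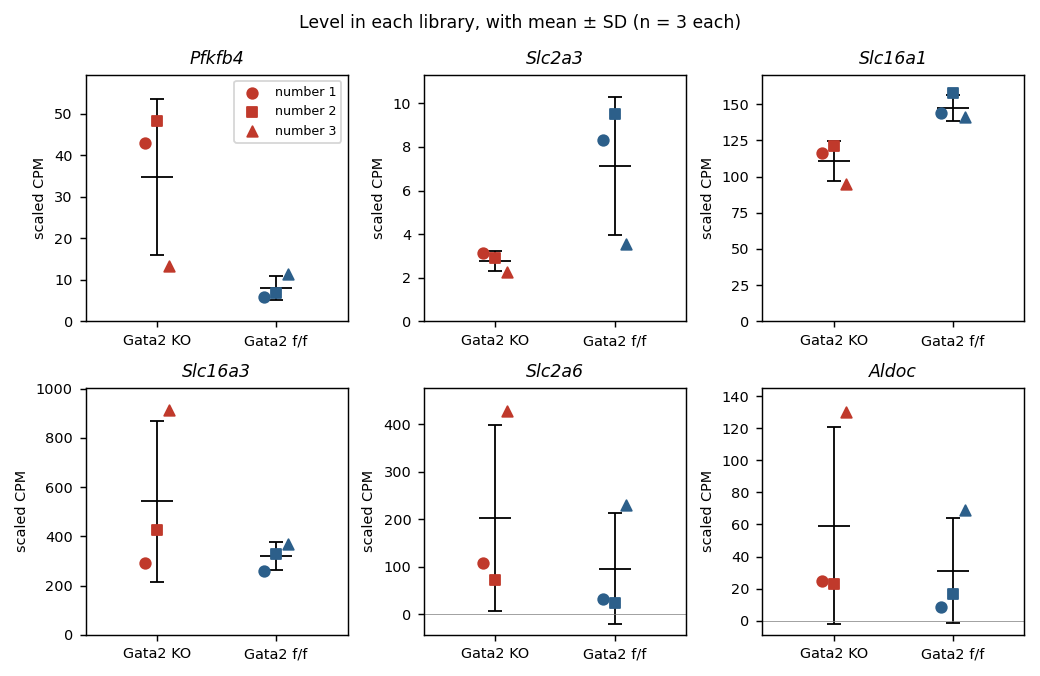
Scaled CPM of 6 genes in each library (markers give the library number), with the mean and SD of 3 libraries per genotype. Pfkfb4 is separated upwards in KO and Slc2a3 and Slc16a1 downwards, while Slc2a6 and Aldoc are highest in both libraries numbered 3.

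Lower glycolysis runs from glyceraldehyde phosphate to pyruvate, and all 5 of its genes had positive fold changes. Without KO 3 it was 3 of 5, in a fit that kept f/f 3, the highest f/f library for each of these genes. There Pgk1 turned to -0.14 and Eno1 to -0.05, and Pkm was 0.02. Yet KO 1 lay above f/f 1 by 0.13 on the log2 scale for Pgk1 and by 0.14 for Eno1. KO 2 lay above f/f 2 by 0.06 and 0.05. The turns of sign therefore cannot be tied to KO 3 alone. Gapdh, the dehydrogenase of this stage, had 3631, 3707 and 9172 scaled CPM in KO and 2793, 3262 and 4542 in f/f. In the unblocked test its log2 fold change was 0.64 ± 0.43 (unadjusted p = 0.179, edgeR), and 0.03 without KO 3. The block gave 0.52 ± 0.22 (unadjusted p = 0.0475, adjusted p = 0.460, edgeR). Pgk1, which makes the first ATP of this stage, had 825, 1176 and 2074 in KO and 751, 1124 and 1376 in f/f. Pgam1, the mutase, had 490, 520 and 519 in KO and 411, 453 and 528 in f/f, and was the most even of the 5. Eno1, enolase, had 2788, 2858 and 6091 in KO and 2536, 2770 and 3344 in f/f. Pkm, pyruvate kinase, had 3006, 2517 and 6064 in KO and 2304, 2254 and 3506 in f/f. In 4 of the 5, KO 3 held the highest value and KO exceeded f/f within each number. A pseudogene of Pgam1 averaged 101 scaled CPM and a copy of Eno1 29.5, so reads may be split between near-identical sequences.

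Pyruvate is reduced to lactate by lactate dehydrogenase or enters the mitochondria. Ldha had 1887, 2581 and 3263 scaled CPM in KO and 1837, 2405 and 2704 in f/f. Ldhb was scarce, at 0.716, 0.651 and 3.95 in KO and 0.970, 0.981 and 2.71 in f/f. Values of the kinases that switch off pyruvate dehydrogenase overlapped between the genotypes. Pdk1 had 106, 143 and 106 in KO and 104, 147 and 143 in f/f, and Pdk3 had 46.9, 52.4 and 61.5 in KO and 64.2, 67.1 and 58.0 in f/f. For Pdk3 the log2 fold change was -0.23 ± 0.21 (unadjusted p = 0.300, adjusted p = 1.00, edgeR).

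The lactate carriers lay on opposite sides. Slc16a1 encodes MCT1, which moves lactate in either direction, and had 116, 121 and 94.7 scaled CPM in KO and 144, 158 and 141 in f/f. Every KO library lay below every f/f library (2.78% of all genes on that side), with a log2 fold change of -0.42 ± 0.21 (unadjusted p = 0.0806, adjusted p = 1.00, edgeR). The block gave -0.42 ± 0.15 (unadjusted p = 0.0299, adjusted p = 0.433, edgeR). Slc16a3 encodes MCT4, the export form of glycolytic cells, and had 291, 424 and 912 in KO and 258, 330 and 368 in f/f. KO was higher within each number, and the groups overlapped. Its log2 fold change was 0.77 ± 0.43 (unadjusted p = 0.115, adjusted p = 1.00, edgeR) and 0.14 without KO 3. The block gave 0.61 ± 0.25 (unadjusted p = 0.0451, adjusted p = 0.458, edgeR). Slc16a3 took 67.6%, 74.5% and 88.9% of the pair per kilobase in KO, against 59.9%, 63.6% and 68.5% in f/f. The difference of these shares was not tested.

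**Figure D3:**
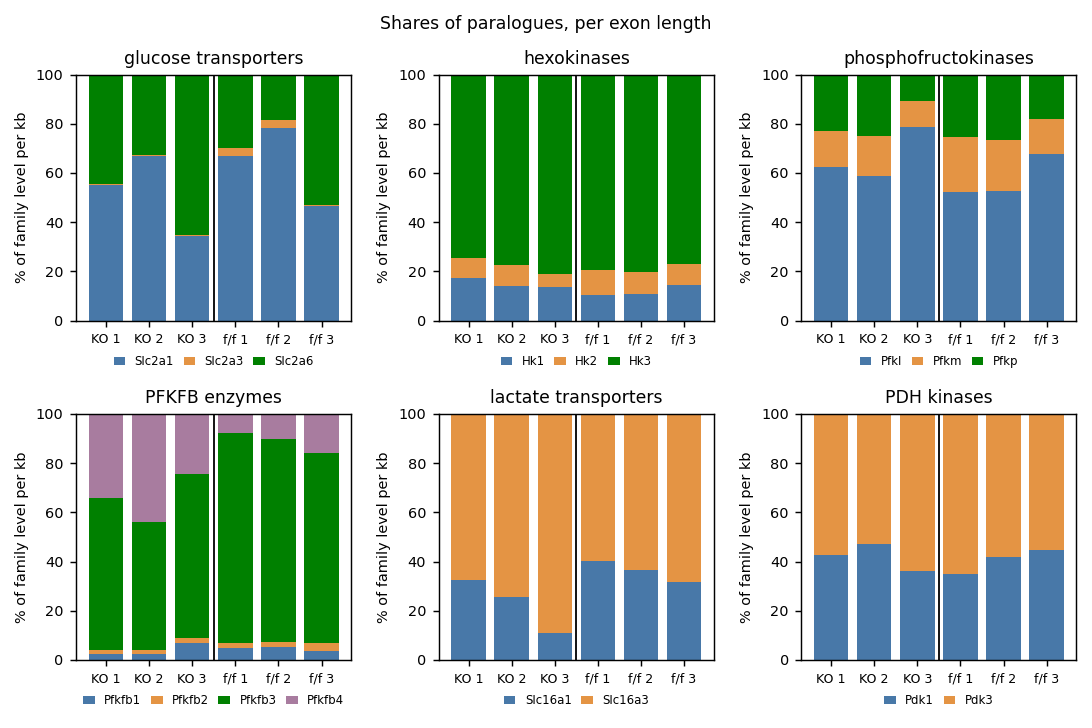
Share of each paralogue in the summed level per kilobase of exon of its family, by library, with Gata2 KO left of the line and Gata2 f/f right of it. Pfkfb4 and Slc16a3 take more of their families in KO 1, 2 and 3 than in the f/f library of the same number.

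The oxidative pentose phosphate enzymes make NADPH. G6pdx, which catalyses the first step, had 605, 272 and 1091 scaled CPM in KO and 326, 296 and 583 in f/f. Pgd had 1374, 868 and 2972 in KO and 738, 913 and 1849 in f/f. In both genes the library labelled KO 2 lay below f/f 2, while KO was higher in numbers 1 and 3. The log2 fold change of G6pdx was 0.71 ± 0.51 (unadjusted p = 0.209, adjusted p = 1.00, edgeR) and 0.10 without KO 3. That of Pgd was 0.58 ± 0.53 and turned to -0.08 without KO 3. G6pdx shares 418 exon bases with Ikbkg on the other strand. Pgls, the lactonase between them, had 90.8, 99.1 and 166 in KO and 94.3, 88.2 and 108 in f/f.

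The non-oxidative enzymes interconvert pentoses with glycolytic sugars. Transketolase, Tkt, had 1129, 907 and 965 scaled CPM in KO and 880, 949 and 899 in f/f. Taldo1, transaldolase, had 672, 650 and 897 in KO and 457, 603 and 751 in f/f, higher in KO within each number. For Taldo1 the log2 fold change was 0.29 ± 0.28 (unadjusted p = 0.321, adjusted p = 1.00, edgeR). Rpia, the ribose phosphate isomerase, had 105, 118 and 57.1 in KO and 98.3, 152 and 91.4 in f/f. Rpe, the epimerase, had 114, 128 and 124 in KO and 112, 157 and 139 in f/f. The summed levels of these 4 genes were 1802 to 2043 scaled CPM in KO and 1548 to 1879 in f/f.

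Summed over the 35 genes, the levels were 23963, 23216 and 46939 scaled CPM in KO and 18742, 21559 and 28120 in f/f. They took 2.48%, 2.29% and 4.23% of all counts in KO, against 1.92%, 2.28% and 2.81% in f/f. KO 3 was the highest library for 20 of the 35 (57.1%), against 30.7% of all genes, and the lowest for 7 (31.9% of all genes), while f/f 1 was the lowest for 17 (48.6%), against 13.9%. The neutrophil marker list (11 of 12 genes tested) moved in the same layout, with summed levels of 629 to 3918 scaled CPM in KO and 297 to 2087 in f/f. That list had positive fold changes in 10 of 11. EdgeR called 0 of them. DESeq2 with the block, the fit that called Pfkfb4, Slc2a6 and Aldoc, called 6 of the 11 higher in KO (1.31% of all genes). These 6 were S100a8, Ngp, Lcn2, Mmp9, Cd177 and Cxcr2. The part of these markers in the sums and in those calls was not tested. No marker of the list was at 0 in all 6 libraries, and Retnlg had 0 counts in KO 1.

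**Figure D4:**
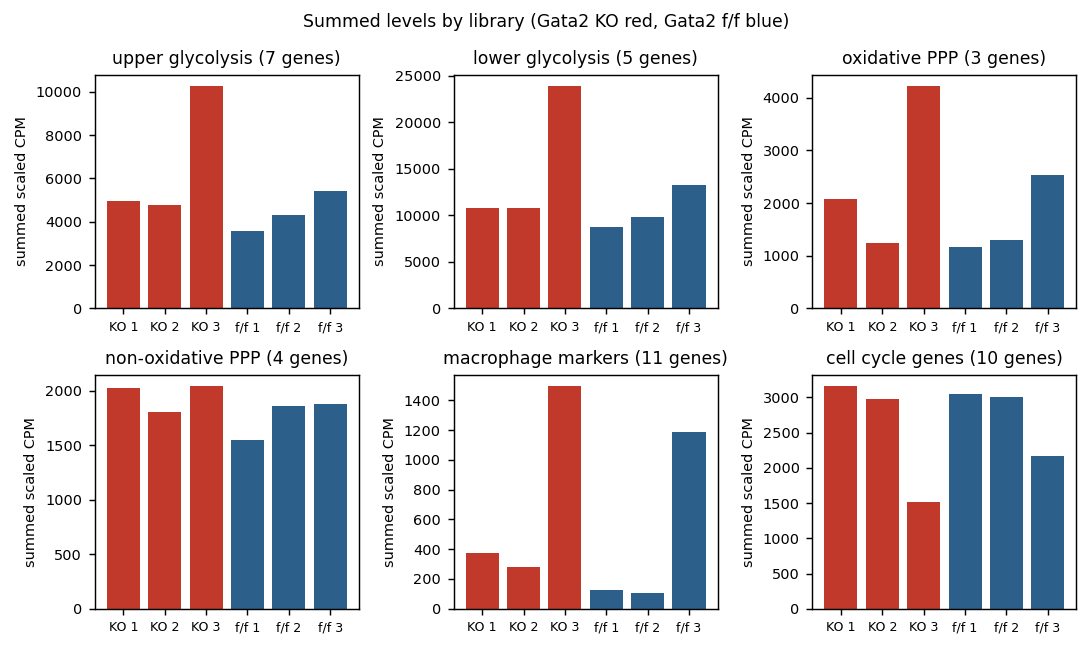
Summed scaled CPM of 4 roles, of the macrophage markers and of the cell cycle (proliferation) genes in each library, with Gata2 KO in red on the left and Gata2 f/f in blue on the right. KO 3 is highest in upper and lower glycolysis and in the oxidative pentose phosphate group, while both number 3 libraries are high in macrophage markers and low in cell cycle genes.

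The libraries numbered 3 were compared with numbers 1 and 2 in a model that also held genotype. This comparison was chosen because an earlier report of these data found the libraries numbered 3 apart. Its calls are therefore no independent evidence that number 3 differs. Of the 35 genes 11 were called (31.4%; 19.0% of all genes), with 10 higher in number 3 (12.0% of all genes) and 1 lower (6.98%). The largest differences on the log2 scale were 2.67 ± 0.21 for Slc2a6 (adjusted p = 0.00209, edgeR), 2.47 ± 0.23 for Aldoc (adjusted p = 0.00316, edgeR) and 2.01 ± 0.40 for Ldhb (adjusted p = 0.0219, edgeR). Pgd (1.29 ± 0.23, adjusted p = 0.0154), G6pdx (1.15 ± 0.24, adjusted p = 0.0252) and Aldoa (1.03 ± 0.22, adjusted p = 0.0262, edgeR) followed. Gapdh, Slc2a1, Pkm and Pgk1 were also called higher, by 0.83 to 0.97. Pfkp was called lower, at -0.64 ± 0.17. Both number 3 libraries lay above the other 4 for 13 of the 35 (21.1% of all genes) and below them for 3 (20.4%).

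The count of called genes changed when single libraries were left out. It was 5 (14.3%) without the library labelled KO 2, against 11.6% of all genes, and 7 (20%) without KO 1, against 15.9%. These fits had fewer residual degrees of freedom, so a call lost there cannot be tied to the library left out. Without KO 3 or f/f 3, number 3 held a single library, so only sizes of change are given. With each library left out in turn, the log2 difference was 2.30 to 3.01 for Slc2a6 and 2.29 to 2.69 for Aldoc. It was 0.57 to 1.34 for Gapdh and -0.79 to -0.50 for Pfkp. Number 3 also had the higher neutrophil sums, 2087 to 3918 scaled CPM against 297 to 1894 in numbers 1 and 2. Of the 11 neutrophil genes tested, 5 were called higher (12.0% of all genes). Proliferation genes had sums of 1515 to 2165 in number 3 against 2975 to 3163 in numbers 1 and 2. Of these 10 genes, 3 were called lower (6.98% of all genes). The part of these cell markers and of proliferation in the differences was not tested. In bulk RNA, fewer cells of a type and less RNA per cell cannot be told apart.

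**Figure D5:**
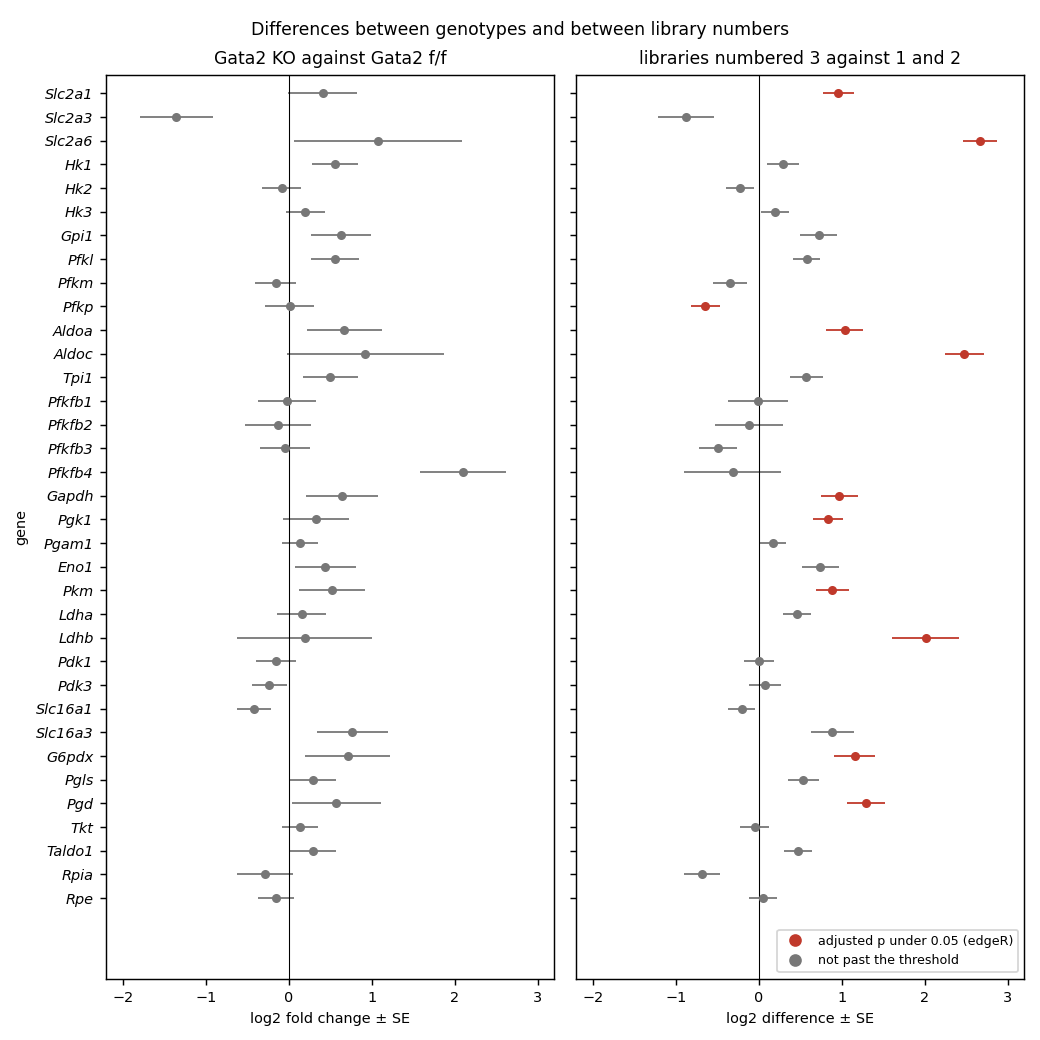
Log2 differences ± SE of the 35 genes for Gata2 KO against Gata2 f/f (left) and for libraries numbered 3 against 1 and 2 (right), from edgeR, with red for an adjusted p under 0.05. There are 0 red points on the left and 11 on the right.

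Genes around the pathway gave 0 calls between the genotypes by edgeR, with or without the block. Of 14 regulators 6 had positive fold changes, of 11 genes of pyruvate entry 4, of 20 tested genes of side branches 10, of 5 other pentose phosphate genes 3, and of 13 other isoforms and chaperones 7. Among 16 HIF targets outside glycolysis 12 were positive, with a median log2 fold change of 0.14. Over all genes tested 52.5% were positive, with a median of 0.02. Bsg, the chaperone of the lactate carriers, had 357, 403 and 627 scaled CPM in KO and 315, 341 and 396 in f/f. KO was higher within each number, with a log2 fold change of 0.40 ± 0.28. Sirt6, a deacetylase known to repress glycolytic genes, had 30.7, 25.2 and 36.3 in KO and 23.5, 18.7 and 24.0 in f/f. Every KO library lay above every f/f library, a layout shared by 2.64% of all genes on that side. The log2 fold change of Sirt6 was 0.48 ± 0.25 (unadjusted p = 0.0897, adjusted p = 1.00, edgeR). Egln3, a HIF prolyl hydroxylase and itself a HIF target, had 73.9, 208 and 38.6 in KO and 215, 243 and 102 in f/f. It was lower in KO within each number, and passed in DESeq2's blocked fit (adjusted p = 0.0109). The log2 fold changes of the other genes of smallest p were 0.30 for Mlx, a partner of a glucose-sensing factor, 0.46 for Mpc2, a subunit of the mitochondrial pyruvate carrier, and 0.45 for Pdk4, another kinase of pyruvate dehydrogenase. They were 0.38 for Gys1, glycogen synthase, 0.40 for Khk, which phosphorylates fructose, -0.46 for Prps2, which starts nucleotide synthesis from ribose phosphate, and 0.50 for Shpk, a sedoheptulose kinase. They were 0.39 for Slc2a4, the insulin-responsive glucose carrier, 1.44 for the HIF target Adm and 0.72 for the HIF target Ndrg1. None of these passed edgeR's test (adjusted p = 1.00 for each). Few reads stood behind some of these fold changes. Adm (SE 0.93) had 12, 12 and 93 counts in KO and 3, 13 and 28 in f/f. Pdk4 had 8 to 37 counts per library and Slc2a4 had 17 to 33. Tktl1, Tktl2 and Pgk2 had 0 counts in every library.

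Markers of other blood and tissue cells are given here for the whole lists. Macrophage genes summed to 280 to 1497 scaled CPM in KO and 107 to 1186 in f/f. Erythroid genes summed to 4.58 to 12.1 in KO and 3.02 to 4.55 in f/f, with Slc4a1 at 0. Mast cell and basophil genes summed to 5.84 to 21.5 in KO and 6.93 to 14.4 in f/f. Lymphoid genes summed to 0.955 to 2.52 in KO and 0.627 to 1.59 in f/f, with Pax5 and Ncr1 at 0. Stromal and vascular genes summed to 152 to 218 in KO and 133 to 183 in f/f. Genes of leukaemic progenitors summed to 3991 to 6584 in KO and 3179 to 4879 in f/f, mostly from the granule protease genes Elane and Prtn3. Fold changes were positive in 7 of the 10 genes of that list, with a median log2 fold change of 0.18. The 3 with negative fold changes were the surface markers Cd34, Kit and Flt3. DESeq2 with the block called 2 of the 10, Cd34 among them (1.62% of all genes). The genes of smallest p in edgeR's test were Spi1 and Prtn3. Cd34 had 4.68, 37.1 and 6.68 scaled CPM in KO and 35.1, 39.2 and 33.6 in f/f, and passed in DESeq2's blocked fit (adjusted p = 0.00295) but not in edgeR's test. Kit had 59.7, 58.0 and 1.34 in KO and 88.7, 78.1 and 28.5 in f/f, and Flt3 had 11, 21 and 2 counts in KO and 80, 27 and 10 in f/f. Neither passed either test.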

How the data were processed

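The values are raw counts by gene in 1 table deposited by the authors. Libraries of poly(A) RNA gave paired 90 bp reads, per the labels' protocols. Per the submitters' processing notes, mm10, DESeq2, kallisto and HTSeq were used, without roles or versions. The annotation and strand setting: not given in the sources used here. Of 49585 identifiers, 49326 matched GENCODE M21 without their version, and the others held 0.00962% of the counts. Groups and numbers came from the sample titles. The design text calls the samples independent, but whether they are separate leukaemias is not given, so a p-value reflects only the spread among the samples.

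The filterByExpr step of edgeR (minimum count 10) retained 13744 genes with 99.9% of the counts. Genotypes were compared with the quasi-likelihood test of edgeR (robust, TMM), using Benjamini-Hochberg adjustment over all genes and a threshold of 0.05. Every printed adjusted p comes from edgeR unless DESeq2 is named. Within-number differences used an offset of 0.05 scaled CPM, and levels per kilobase used the union of exons. The software was R 4.3.3, edgeR 4.0.16, limma 3.58.1, DESeq2 1.42.0 and Python 3.11.15.

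Deviations from the group means correlated at 0.29, 0.55 and 0.65 between the libraries of numbers 1, 2 and 3, all over 0.1, so numbers were taken to pair the samples. Libraries of unlike number also passed 0.1, with 0.46 for KO 2 and f/f 1 and 0.104 for KO 1 and f/f 2. That threshold therefore does not set numbers 1 and 2 apart, and the pairing of these libraries rests on their titles. The biological coefficient of variation was 0.426 without the block and 0.256 with it, with 4 and 2 residual degrees of freedom. Blocked fits on fewer libraries had fewer still. Without the library labelled KO 2, f/f 2 had no partner of its number in them.

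All 35 genes are given by library. Full tests are given for those of the 35 that do not overlap between genotypes, have an unadjusted p under 0.05 with or without the block, or have the smallest p of their role, and for the 6 with the largest change of those called between numbers, and for the other pathway lists the genes of smallest p are named. Egln3, Cd34, Kit, Flt3, Elane and Prtn3 were chosen after their values were seen. The genes, the lists and the comparison between numbers were chosen with earlier results of these data known. Alternatives were other scalings and filters, DESeq2, limma voom, the block, and leaving out libraries. The number comparison without each library, DESeq2 with the block on fewer libraries, and the overlap counts without the library labelled KO 2, were added after the data were seen.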

Additional observations from a re-analysis of the deposited data

How the results depend on the processing

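Between the genotypes, edgeR called 0 genes and 0 of the 35 when any single library was left out. With the replicate block the counts were also 0, and 54 genes and 0 of the 35 without the library labelled Gata2 KO 2. DESeq2 called 7 genes, and 222 with the block, 3 of them among the 35. On fewer libraries, DESeq2 with the block called 67 genes without the library labelled KO 2, and 382 genes with 5 of the 35 without both number 3 libraries. The cause was not tested. Between the numbers, edgeR without genotype in the model called 1634 genes and 7 of the 35. Leaving out single libraries gave 3 to 20 of the 35 (3 to 16 higher) and 1492 to 4318 genes (1035 to 2024 higher). Other scalings moved the median of all genes by at most -0.074.

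For the fold change between genotypes, Pfkp was 0.01 and turned to -0.0086 with DESeq2's size factors or DESeq2, -0.022 with upper-quartile scaling, limma voom or the replicate block, -0.053 with library totals, -0.043 with no filter and -0.042 with DESeq2 and the block. Without number 1 it was -0.0092 and without number 2 -0.11. Ldhb turned to -0.13 with voom, -0.095 with the block, -0.14 with DESeq2 and the block and -0.54 without number 3 by either tool. Without number 3, Pfkfb2 was 0.22 and Pfkfb3 0.13 (0.12 with DESeq2 and the block). Pfkfb1 was 0.11 with edgeR and 0.10 with DESeq2, both with the block and without the library labelled KO 2, 0.076 without number 1 and 0.097 without number 2. Tkt was -0.013 without number 1.

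Leaving out single libraries moved the fold change from -0.20 to 0.21 for Pfkp, -0.19 to 0.051 for Pfkfb1, -0.26 to 0.010 for Hk2, -0.41 to 2.22 for Aldoc, -0.36 to 0.068 for Pfkfb2 and -0.35 to 0.18 for Pfkfb3. It spanned -0.082 to 1.03 for Pgd, -1.20 to 0.84 for Ldhb, -0.051 to 0.43 for Pgls, -0.11 to 2.80 for Slc2a6, -0.14 to 0.56 for Pgk1, -0.072 to 0.31 for Ldha and -0.052 to 0.61 for Eno1.

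For the difference between numbers, Pdk1 was 0.0012 and turned to -0.0015 with DESeq2's size factors or DESeq2, -0.026 with no filter and -0.0027 with voom. Without single libraries it ran from -0.19 to 0.19 for Pdk1, -0.13 to 0.024 for Tkt, -0.76 to 0.43 for Pfkfb2, -0.19 to 0.33 for Pdk3, -0.015 to 0.10 for Rpe, -1.75 to 0.81 for Pfkfb4 and -0.44 to 0.39 for Pfkfb1. Counts cover reads without molecular identifiers, and the genes near the detection limit (Ldhb, Pfkfb1, Pfkfb2 and Slc2a3) rest on the fewest reads.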

Other observations

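The serine branch leaves glycolysis at 3-phosphoglycerate, and its genes were looked at after their values were seen. Phgdh, which opens the branch, had 284, 328 and 170 scaled CPM in Gata2 KO 1, 2 and 3 and 416, 414 and 240 in Gata2 f/f 1, 2 and 3. Psat1, the next enzyme, had 350, 667 and 250 in KO and 594, 825 and 298 in f/f. Both were lower in KO within each number, and the groups overlapped. The log2 fold changes were -0.45 ± 0.34 for Phgdh and -0.44 ± 0.48 for Psat1 (adjusted p = 1.00 for each, edgeR). Psph, which completes the branch, lay the other way in number 3, with 27.3, 36.9 and 28.5 in KO and 31.3, 42.1 and 17.8 in f/f and a log2 fold change of 0.02 ± 0.34. Between numbers, Phgdh and Psat1 were called lower in number 3 than in numbers 1 and 2 (6.98% of all genes), with log2 differences of -0.82 ± 0.16 and -1.09 ± 0.19 (edgeR, adjusted p = 0.0209 and 0.0149). Psph was not called (-0.57 ± 0.26, adjusted p = 0.163, edgeR). Of the 20 tested genes of side branches, which include these 3, edgeR called 4 lower in number 3, also Shmt2 and Pck2, and 2 higher, Gnpda1 and Pygl (12.0% of all genes).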
